A study of Mus musculus with 9 samples.

Results

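RNA sequencing libraries of CD133+Nestin+ cells were compared with libraries of CD133+ cells from the third ventricular zone, a progenitor layer at the wall of that ventricle in the mouse brain. The comparison used 6 of the 9 libraries of the series, chosen by title: 3 CD133+Nestin+ libraries (ncfp cd133) and 3 CD133+ libraries (cd133). Each title carries a sort number, facs1, facs2 or facs3, and libraries of the same number were compared with each other. All cells came from untreated mice on a C57/BL6 background at postnatal day 1, which carried the Nestin-CFPnuc transgene, a nuclear cyan fluorescent protein (CFP) driven by the Nestin promoter. CD133+Nestin+ cells were positive for CD133 and CFP, and CD133+ cells are labelled by CD133 alone. The sources used here do not say whether the CD133+ gate removed cells with CFP, or how many animals gave the cells of a library. Each of the 6 libraries held female and male transcripts, as given below, and so cells of more than 1 animal. The labels also give each library a passage number equal to its sort number. The submitters asked how such sorted progenitors differ in function and in transcripts, and the comparison bears on the transcripts.

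CD133, or prominin-1, is a membrane protein of cell protrusions that is found on the apical surface of neuroepithelial, radial glial and ependymal cells, and also on some cells outside the nervous system. Nestin is an intermediate filament protein of neural progenitors. In the newborn brain, radial glia that line the ventricles give rise to ependymal cells with motile cilia, to glial cells and, around the third ventricle, to tanycytes. Capillaries with their pericytes, macrophages of the vessel walls and microglia lie close to this layer.

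The promoter sequences of 3 genes with large differences are shown, each covering 250 bases before and 50 bases after the transcription start, from RefSeq on GRCm38.p6. Wnt8b and Dbx1 were among the largest rises in CD133+Nestin+ cells and Pf4 was among the largest falls. Capitals mark the letters TATAAA, which resemble a TATA box, in Dbx1, and the letters ACTTCCTC, which are GAGGAAGT on the other strand and resemble the binding letters of the myeloid factor PU.1, in Pf4. The promoters lie at chr19:44493222-44493521 on the plus strand (Wnt8b), chr7:49636786-49637085 on the minus strand (Dbx1) and chr5:90772185-90772484 on the plus strand (Pf4).
Wnt8b: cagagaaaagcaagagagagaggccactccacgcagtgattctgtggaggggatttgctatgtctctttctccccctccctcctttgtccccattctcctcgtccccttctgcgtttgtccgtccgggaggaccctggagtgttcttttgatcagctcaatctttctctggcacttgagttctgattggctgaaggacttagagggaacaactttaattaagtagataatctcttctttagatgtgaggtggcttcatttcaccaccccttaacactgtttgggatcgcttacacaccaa
Dbx1: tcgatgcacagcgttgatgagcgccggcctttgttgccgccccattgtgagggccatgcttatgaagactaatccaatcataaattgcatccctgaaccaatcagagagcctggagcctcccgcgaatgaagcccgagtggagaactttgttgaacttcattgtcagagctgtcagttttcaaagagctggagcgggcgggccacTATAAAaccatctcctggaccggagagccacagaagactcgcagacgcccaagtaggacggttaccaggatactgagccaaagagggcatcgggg
Pf4: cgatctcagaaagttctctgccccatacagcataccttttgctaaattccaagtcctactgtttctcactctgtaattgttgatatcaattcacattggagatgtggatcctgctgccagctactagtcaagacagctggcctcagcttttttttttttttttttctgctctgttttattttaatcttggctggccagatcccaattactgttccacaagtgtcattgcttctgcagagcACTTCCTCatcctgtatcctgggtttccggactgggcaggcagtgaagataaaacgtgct

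Such windows of all tested genes were searched for 3 sets of letters on both strands. Of the 15666 different symbols tested, 10583 had a promoter in the table, as did 31 of the genes called higher and 232 of those called lower. TATAAA was in 6.75% of all these promoters, in 8 of the 31 for higher genes (Anxa1, Dbx1, Inka2, Map1b, Ncan, Pcp4l1, Pxdc1 and Slit2) and in 31 of the 232 for lower genes. GAGGAAGT was in 2.65% of all promoters, in 0 of the 31 and in 16 of the 232. In the microglia and macrophage list it was in 3 of 11 promoters, those of C1qc, Ctss and Pf4, and in the endothelial list in 1 of 5. ATCAAAG, the core letters of TCF and LEF factors of the WNT pathway, was in 2.42% of all promoters, in 0 of the 31 and in 8 of the 232. The Wnt8b window held none of the 3. In Dbx1 the TATA letters began 45 bases before the start, and in Pf4 the PU.1 letters began 10 bases before it. The TATA letters began 28 to 32 bases before the start in Anxa1, Pxdc1 and Slit2, 99 before it in Map1b and at base 1 after it in Pcp4l1. In Inka2 and Ncan they lay on the other strand, so the 8 matches are not all placed alike. A match describes the letters and shows no binding.

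Levels are in CPM, read counts scaled to a common total, which the values themselves were used to infer, and differences are log2 of (CPM + 1), which understates the change of low genes. A difference is the mean over the 3 sorts of the CD133+Nestin+ value minus the CD133+ value of the same sort, given with its SE. The test covered 15668 of 18329 genes, those with 1 CPM or more in any 3 of the 6 libraries. Just inside this limit were Fam205a4 and Zfp947, whose third-highest values were 1.0004 and 1.0076 CPM, and just outside were Gucy1a2 and Igsf21, both at 0.99903 CPM. A read was worth 0.0286 to 0.0332 CPM in these 6 libraries, so that 3 reads, the least taken as detected, stood at 0.0857 to 0.0995 CPM, which covers counting error only. The genes in the table held 65.9% of the CPM total in CD133+Nestin+ replicate 2 and 77.7% to 87.6% in the other 5 libraries. That library also stood apart in low values: 400 tested genes lay under 0.1 CPM there, against 3 to 40 in each of the other 5.

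The transcript of the reporter's promoter gene followed the labels, and the levels of Prom1, which encodes CD133, overlapped between the groups. Nes stood at 39.5, 56.9 and 57.3 CPM in the CD133+ libraries of sorts 1 to 3 and at 210.2, 172 and 212 CPM in the CD133+Nestin+ libraries. The groups did not overlap, and the log2 difference was 1.94 ± 0.23. Prom1 stood at 146, 182 and 179 CPM in CD133+ and at 142, 116 and 181 CPM in CD133+Nestin+ libraries, with overlapping groups. An exact two-sided sign-flip permutation test over the 3 pairs gave p = 0.25 for Nes, the smallest that 3 pairs allow, and p = 0.5 for Prom1. Cells were chosen by these markers, so the values check the labels and are no finding. Nes transcript was present in the CD133+ libraries as well, at 51.2 ± 10.1 CPM against 198 ± 22.6 CPM in CD133+Nestin+ libraries (SD, n = 3).

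Of the 15668 genes, 367 differed at an adjusted p under 0.05 (2.34%), 44 higher (0.281%) and 323 lower (2.06%) in CD133+Nestin+ cells. The large differences were falls: the 12 largest falls among eligible genes ranged from -5.40 to -4.31 on the log2 scale, and the 12 largest rises from 1.94 to 2.65. The value of 1.94 is that of Nes, the reporter's promoter gene, which is also counted among the 44 genes called higher. All 367 genes moved the same way in all 3 sorts, and in 359 the 2 groups did not overlap. Over all genes tested, 43.3% moved the same way in all 3 sorts, 18.8% higher and 24.6% lower, and the groups did not overlap in 6.54% (higher) and 11.2% (lower). At an unadjusted p under 0.05 there were 2531 genes. The median log2 difference over all genes was -0.07, and median centring moved it by 0.131, to 0.06.

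**Figure D1:**
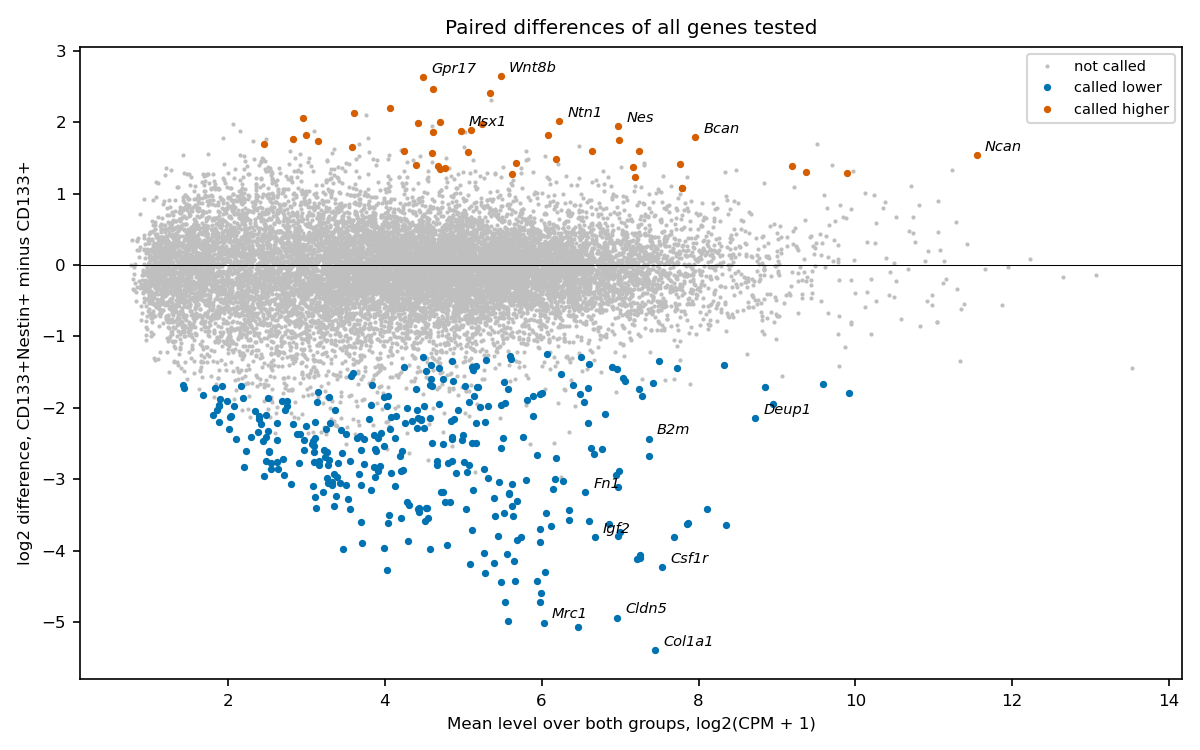
Log2 difference between CD133+Nestin+ and CD133+ libraries (mean of 3 sorts) against the mean level over both groups, 1 point per gene tested. Blue points are the 323 genes called lower and orange points the 44 called higher; lower genes reach -5.40 (Col1a1) and higher genes 2.65 (Wnt8b).

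The sorts differed in the spread of the log2 differences between the 2 groups of libraries. The SD of the log2 difference over genes was 0.589 in sort 1, 1.14 in sort 2 and 0.703 in sort 3. In sort 2, 1727 genes were more than 1 log2 unit higher and 3630 more than 1 log2 unit lower, against 355 and 746 in sort 1 and 477 and 981 in sort 3. CD133+Nestin+ replicate 2, a library of sort 2, also stood apart in low values, as given above. Its part in the spread of sort 2 was not tested. Across genes the differences of sorts 1 and 3 correlated at r = 0.663, those of sorts 2 and 3 at 0.51 and those of sorts 1 and 2 at 0.4. Genes are not independent replicates, and each value describes these libraries. Among the genes called lower the median difference was -2.15 in sort 1, -2.73 in sort 2 and -2.74 in sort 3, and among those called higher it was 1.45, 1.89 and 1.55. Without sort 2, 1182 genes were called, 340 higher and 842 lower, and 365 of the 367 were among them. Without sort 1, 1033 were called, 354 of the 367 among them, and without sort 3, 381, with 270 of the 367.

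**Figure D2:**
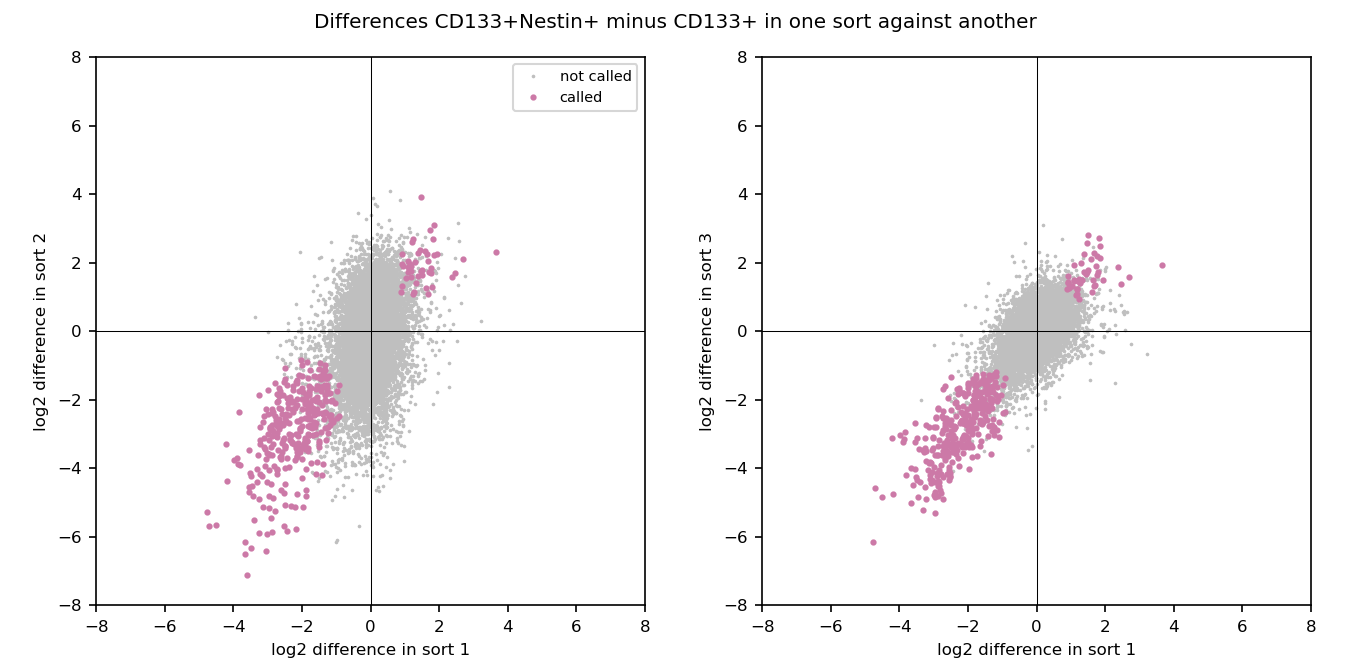
Log2 difference of each gene in sort 1 (horizontal) against that in sort 2 (left) and sort 3 (right), CD133+Nestin+ minus CD133+. Called genes (pink) lie at the lower left and upper right, and differences in sort 2 spread more widely (SD 1.14) than in sort 1 (0.589) or sort 3 (0.703).

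Some transcription factor and ligand genes that pattern the diencephalon rose in CD133+Nestin+ cells. In the list of 18 tested genes of diencephalic patterning, 4 were higher, among them Wnt8b, Dbx1 and Msx1, and 1 was lower, and the list's median was 0.71. With a pseudocount of 0.1 or no filter 2 were higher, and without sort 2, 7 were. Wnt8b encodes a WNT ligand of the dorsal forebrain and hypothalamus. It stood at 15.8, 7.43 and 8.84 CPM in CD133+ and at 45.5, 126 and 57.6 CPM in CD133+Nestin+ libraries, a log2 difference of 2.65 ± 0.44 (adjusted p = 0.0339). The lowest CD133+Nestin+ library was above every CD133+ library, and the library of sort 2 was the highest. The Nestin+ libraries, sorted by CFP, stood at 9.82, 17.1 and 15.5 CPM.

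Dbx1 encodes a homeodomain factor that sets the fate of progenitor domains and lies on chromosome 7, 49631499 to 49636849 (GRCm38). It stood at 4.88, 4.31 and 4.93 CPM in CD133+ and at 18.7, 39.9 and 21.3 CPM in CD133+Nestin+ libraries, with no overlap. The log2 difference was 2.20 ± 0.34 (adjusted p = 0.0248), and the call held in all 13 alternatives. Msx1, a homeobox gene of the dorsal midline, stood at 8.62, 16.6 and 11.8 CPM in CD133+ and at 31.7, 55.5 and 57.5 CPM in CD133+Nestin+ libraries, and at 5.19, 4.21 and 6.69 CPM in Nestin+ libraries. Its difference was 1.88 ± 0.24 (adjusted p = 0.0129). The call of Wnt8b was lost with a pseudocount of 0.1, with no filter, and with no trend and no robust prior, and that of Msx1 without both the pairing and CD133+Nestin+ replicate 2.

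Barhl2, a further diencephalic homeobox gene, was higher in all 3 sorts by 0.862, 2.16 and 1.42 log2 units but did not pass (adjusted p = 0.119). Among 8 tested telencephalic factors 0 were called, and their median was 0.12.

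**Figure D3:**
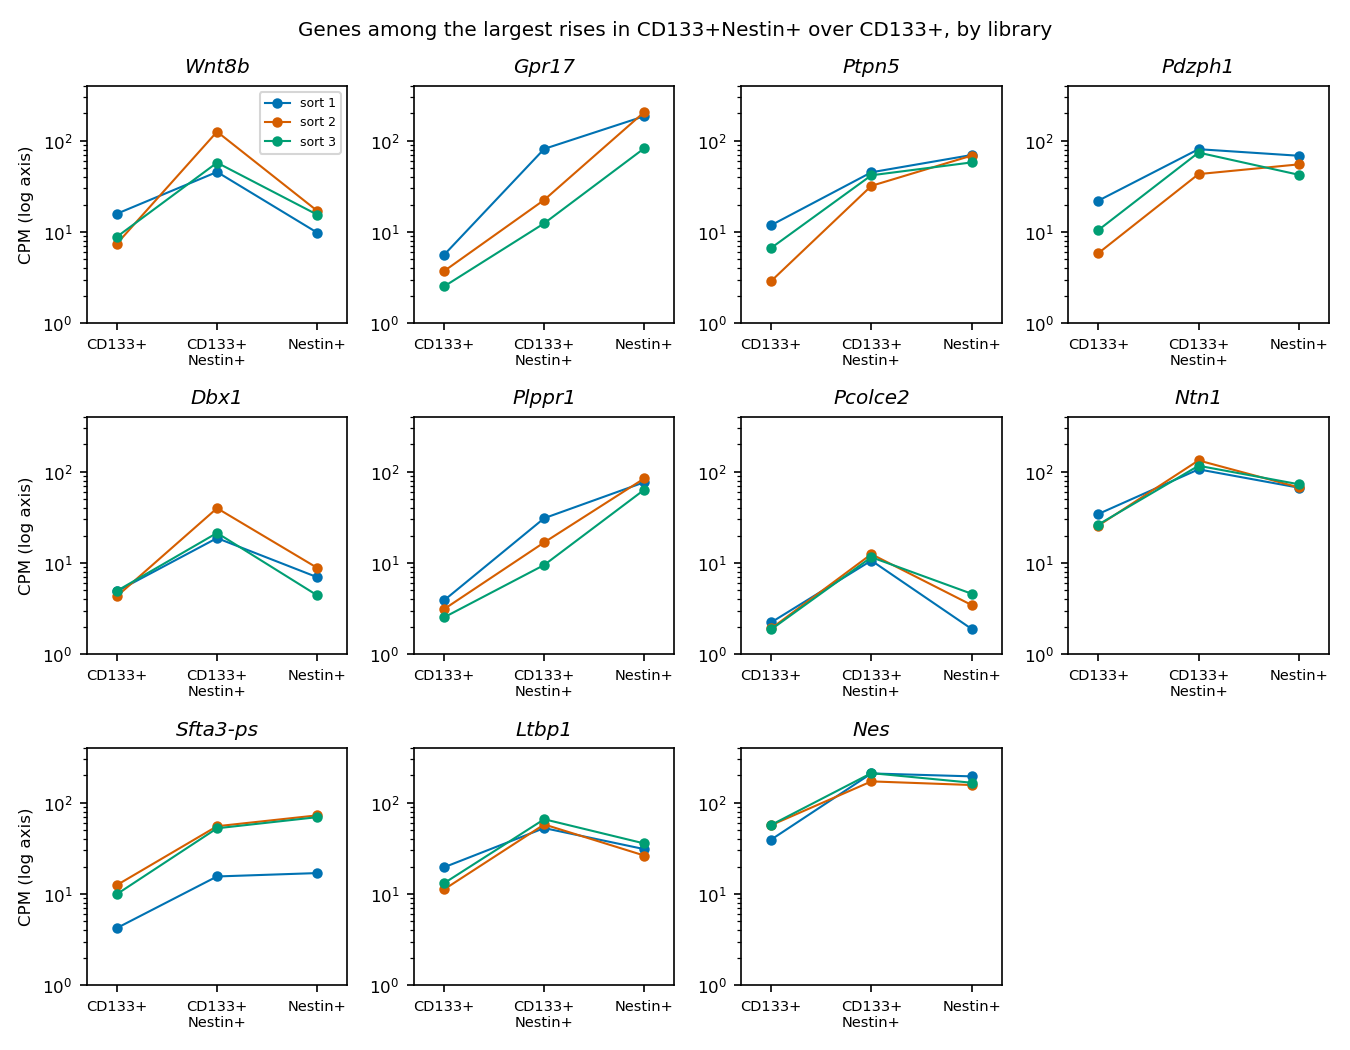
Level in CPM (log axis) of 11 genes among the largest rises, by library, with Nes, the reporter's promoter gene, included. Each line joins the 3 libraries of 1 sort, and colours mark the sorts. In every panel the CD133+Nestin+ value of a sort is above its CD133+ value; Wnt8b, Dbx1 and Pcolce2 are lower again in all Nestin+ libraries, whereas Gpr17 and Plppr1 are highest there.

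Hypothalamic and tanycyte genes had 1 called member of 16 tested, with a median of 0.58. Of the 16, 10 had a positive and 6 a negative difference, and 10 were higher and 3 lower in all 3 sorts. Gpr50, an orphan receptor gene of tanycytes, stood at 19.8, 8.81 and 11.7 CPM in CD133+ and at 78.9, 45.7 and 34.7 CPM in CD133+Nestin+ libraries, a log2 difference of 1.90 ± 0.25 (adjusted p = 0.015). The groups did not overlap, and the Nestin+ libraries stood at 100, 66.1 and 75.4 CPM. Crym, which encodes a thyroid hormone binding protein, and Col23a1, a membrane collagen gene, were each higher in all 3 sorts, with differences of 1.29 ± 0.28 and 1.06 ± 0.24, and did not pass (adjusted p = 0.0826 and 0.0972). Fezf1 and Cd59a, also of this list, were each lower in all 3 sorts, with differences of -1.47 ± 0.32 and -1.69 ± 0.42. Neither passed (adjusted p = 0.0807 and 0.118). Sfta3-ps, which is not in this list, rose by 2.00 ± 0.26 (adjusted p = 0.0133), from 4.22, 12.5 and 9.95 CPM to 15.6, 55.4 and 52.6 CPM. Its libraries of sort 1 were the lowest in both groups, and the highest CD133+ library was close to the lowest CD133+Nestin+ library. Without the pairing the call of Sfta3-ps was lost, as was that of Gpr50.

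Ntn1, Ltbp1, Pcolce2, Ptpn5 and Pdzph1, genes of different roles, were among the 12 largest rises. Ntn1 encodes netrin-1, an axon guidance ligand, and lies on chromosome 11, 68209364 to 68400823. It stood at 34.5, 25.7 and 26.4 CPM in CD133+ and at 106, 134 and 117 CPM in CD133+Nestin+ libraries, a difference of 2.01 ± 0.23 (adjusted p = 0.0095) that was called in all 13 alternatives. Its Nestin+ libraries, at 67.0, 67.6 and 73.1 CPM, lay between. Ltbp1, which encodes a binding protein of latent TGF-beta, rose by 1.97 ± 0.27 (adjusted p = 0.0166) and Pcolce2, an enhancer of procollagen processing, by 2.06 ± 0.31 (adjusted p = 0.0222). The call of Pcolce2 was lost without sort 3. Ptpn5, a neuronal tyrosine phosphatase gene, stood at 11.9, 2.89 and 6.67 CPM in CD133+ and at 45.1, 32.0 and 41.9 CPM in CD133+Nestin+ libraries, a difference of 2.47 ± 0.31 (adjusted p = 0.0127). Pdzph1 stood at 22.1, 5.85 and 10.5 CPM and at 81.0, 43.1 and 74.3 CPM (2.41 ± 0.27, adjusted p = 0.00927). In both genes the CD133+ library of sort 2 was the lowest, and the groups did not overlap.

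Further called rises outside the rule for named genes are given for their known roles and were chosen after their values were seen. They include the repulsive cue Slit2 (1.23 ± 0.21), the ephrin Efnb3 (1.49 ± 0.23), the heparan sulfatase Sulf1 (1.08 ± 0.20), the WNT secretion factor Wls (1.08 ± 0.20), the secreted frizzled-related gene Sfrp4 (1.65 ± 0.28) and the corepressor Tle2 (1.83 ± 0.34). Sulf1 stood at 136 to 147 CPM in CD133+ and at 272 to 321 CPM in CD133+Nestin+ libraries. Wls stood at 129 to 152 CPM and at 273 to 325 CPM in the same order. These 2 rises were even across libraries, though small, and their adjusted p, 0.04995 for Sulf1 and 0.0477 for Wls, was close to the threshold. Without the pairing all 6 lost their calls. Anxa1, a phospholipid binding gene, and Pcp4l1, a small calmodulin-related gene, rose by 1.60 ± 0.21 and 1.27 ± 0.21 and were low in Nestin+ libraries. Anxa1 stood at 30.9, 64.6 and 53.3 CPM in CD133+, at 108, 160 and 178 CPM in CD133+Nestin+ and at 13.6, 12.8 and 18.4 CPM in Nestin+ libraries. Cux2, a homeobox gene of neural precursors, rose by 1.83 ± 0.31, with its highest level, 170 CPM, in CD133+Nestin+ replicate 2. Without the pairing the calls of these 3 were also lost.

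Among feedback genes and receptors of the WNT pathway, 1 member fell. Of 16 tested, 0 were higher and 1 was lower, and the median was -0.48. Apcdd1, a membrane inhibitor of WNT signalling that is also high in brain endothelium, stood at 73.9, 30.4 and 37.5 CPM in CD133+ and at 6.95, 3.51 and 2.42 CPM in CD133+Nestin+ libraries, a difference of -3.18 ± 0.28 (adjusted p = 0.00612). Tcf7 and Lef1, nuclear factors of the pathway, had differences of -2.01 ± 0.39 and -1.19 ± 0.29 that did not pass (adjusted p = 0.0557 and 0.111). Endothelial transcripts were lower in the same libraries, as given below, and their part in these values was not tested.

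Genes of oligodendrocyte precursors and of the neural matrix rose in part. Of 12 tested precursor genes 2 were higher, Gpr17 and Bcan, and the median was 0.92. Gpr17, which encodes an orphan receptor of committed precursors, stood at 5.60, 3.71 and 2.52 CPM in CD133+ and at 81.6, 22.5 and 12.4 CPM in CD133+Nestin+ libraries, a difference of 2.63 ± 0.39 (adjusted p = 0.0219). Its 3 CD133+Nestin+ libraries differed widely, with sort 1 the highest, and all 3 Nestin+ libraries, at 186, 207 and 83.0 CPM, were above the highest of them. Bcan, the proteoglycan brevican, rose by 1.79 ± 0.23 (adjusted p = 0.0135), from 157, 50.8 and 142 CPM to 490, 245 and 401 CPM. Ncan, the related proteoglycan neurocan, rose by 1.54 ± 0.24 (adjusted p = 0.0278), from 2145, 752 and 1935 CPM to 4613, 3126 and 5375 CPM. Both proteoglycans were lowest in sort 2 in each group. Without the pairing 0 of the 12 were called.

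Pdgfra, the growth factor receptor that defines precursors, differed between sorts. It stood at 168 against 17.2 CPM in sort 1, at 33.4 against 27.0 CPM in sort 2 and at 19.7 against 31.8 CPM in sort 3, CD133+Nestin+ first. The within-sort differences were 3.21, 0.30 and -0.665, and the gene was not called (adjusted p = 0.518). Cspg4 had the same order of sorts, at 1.57, 0.175 and -1.44. Pdgfra and Cspg4 are also in the mural and fibroblast list, and the part of those cells in these values was not tested. Sox10 was higher in all 3 sorts, by 2.26, 2.72 and 0.654, and was not called (adjusted p = 0.114). Plppr1, a membrane protein of neurite outgrowth, was called, at 3.88, 3.11 and 2.53 CPM in CD133+ and 31.0, 16.8 and 9.49 CPM in CD133+Nestin+ libraries (2.13 ± 0.34, adjusted p = 0.0278). Its highest value was again in sort 1, and its call was lost without the pairing.

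Neural stem and radial glia genes had 0 of 22 tested members called, although 20 of the 22 had a positive difference and 15 were higher in all 3 sorts. Over all genes 18.8% were higher in all 3 sorts. The list's median was 0.47. Fabp7, a fatty acid binding protein of radial glia, was higher by 0.706, 0.967 and 0.836 log2 units in the 3 sorts (0.84 ± 0.20, adjusted p = 0.104), within which its level ranged from 404 to 2112 CPM in CD133+ libraries. Hes5, the main Notch target of radial glia, was higher by 0.186, 3.66 and 3.10 (2.32 ± 0.63, adjusted p = 0.149), so that sort 1 stood apart. Pax6 was lower in all 3 sorts, with a difference of -1.17 ± 0.36 (adjusted p = 0.19).

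Among 17 tested Notch genes and 11 hedgehog genes 0 were called, with medians of 0.32 and 0.31. Of 10 tested proneural factors and their partners 0 were called, with a median of 0.03. Of 16 astroglial genes 1 was lower, the gap junction gene Gjb6 (-1.85 ± 0.34, adjusted p = 0.046), whose call was lost in 6 of 13 alternatives, and the median was 0.11. In the list of 14 feedback and regulator genes of the RAS and MAPK pathway, 0 were higher and 1, the immediate early gene Ier3, was lower (-3.71 ± 0.57, adjusted p = 0.025). Its call was lost without the pairing.

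Of 23 tested genes of ependymal cells and motile cilia, 1 was lower and 0 were higher, and the median was -0.08. Deup1, which makes the deuterosome on which centrioles multiply, stood at 483, 1113 and 485 CPM in CD133+ and at 171, 106 and 164 CPM in CD133+Nestin+ libraries, a difference of -2.14 ± 0.39 (adjusted p = 0.0456). The groups did not overlap. Mcidas and Ccno, 2 further regulators of multiciliated fate, differed by -1.75 ± 0.33 and -2.51 ± 0.49 and did not pass (adjusted p = 0.0535 and 0.0602), with every sort lower. Other regulators of the list lay nearer 0: Gmnc, which acts early in multiciliated fate, differed by -0.04 ± 0.34, Myb by -0.40 ± 0.22, and the RFX factors Rfx2 and Rfx3 by 0.39 ± 0.21 and 0.52 ± 0.22, and none of the 4 was called. Gmnc was low, at 1.91 to 2.29 CPM in CD133+ and 1.2 to 2.73 CPM in CD133+Nestin+ libraries, where the log2 scale used understates a change. Whether regulators and cilium genes differ as groups was not tested. The call of Deup1 was lost in 4 of 13 alternatives, among them a pseudocount of 0.1 and no filter.

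Foxj1, the transcription factor of motile cilia, stood at 184, 421 and 176 CPM in CD133+ and at 149, 127 and 185 CPM in CD133+Nestin+ libraries. Its differences of -0.304, -1.72 and 0.071 were largest in sort 2, and it was not called (adjusted p = 0.413). Hydin, of the central pair of the axoneme, stood at 37.0, 99.4 and 42.2 CPM and at 35.0, 97.5 and 38.1 CPM, a difference of -0.08 ± 0.20. The CD133+ library of sort 2 held the most of these transcripts: the 23 genes summed to 6020 CPM there and to 2971 and 2939 CPM in sorts 1 and 3. In CD133+Nestin+ libraries the sums were 2563, 2940 and 3144 CPM, so that the summed level was 2.05-fold lower in sort 2, 1.16-fold lower in sort 1 and 1.07 times as high in sort 3.

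**Figure D4:**
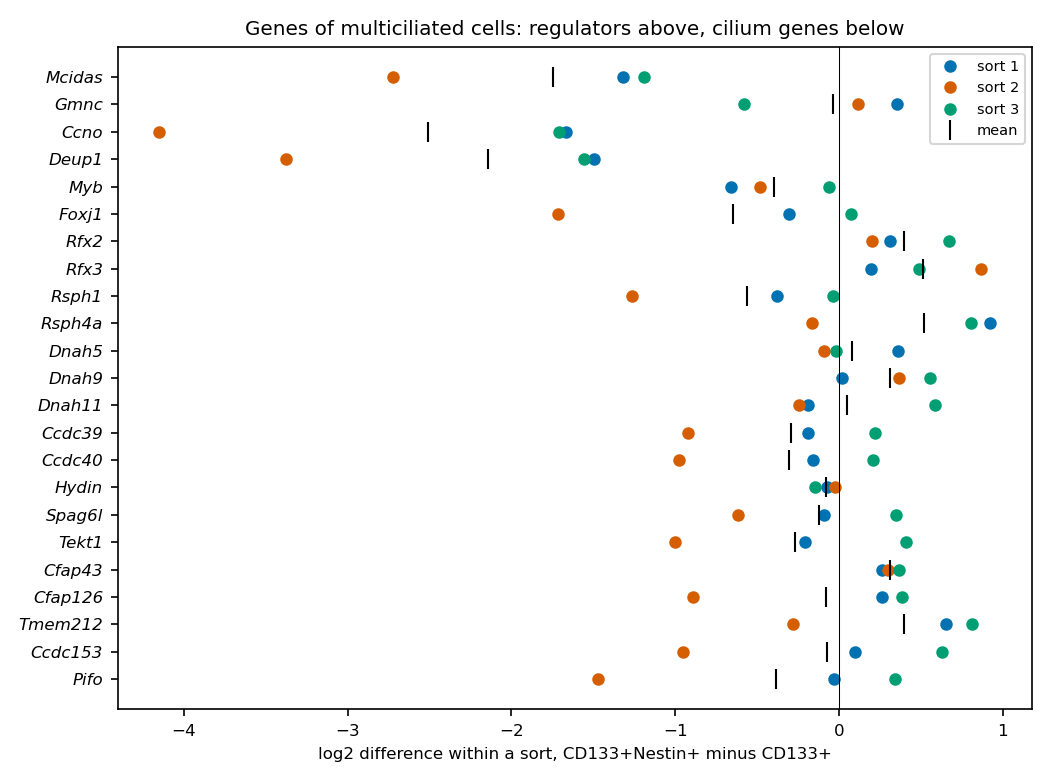
Log2 difference within each sort (coloured points) and its mean (black bars) for the 23 tested genes of multiciliated cells, fate and transcription regulators above and cilium genes below. Deup1, Mcidas and Ccno are lower in all 3 sorts and Rfx2 and Rfx3 are higher in all 3, and most cilium genes lie near 0 or are lower mainly in sort 2.

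Genes of macrophages and microglia fell in CD133+Nestin+ cells in every tested case. All 16 tested list members were called lower, with a median of -3.63. Without the pairing 8 were called, and without both the pairing and CD133+Nestin+ replicate 2, 3 were. Mrc1, the mannose receptor of perivascular macrophages, stood at 120, 141 and 114 CPM in CD133+ and at 4.25, 1.82 and 3.00 CPM in CD133+Nestin+ libraries, a difference of -5.01 ± 0.30 (adjusted p = 0.00344). Pf4, a chemokine gene of the same macrophages, stood at 105, 92.0 and 75.6 CPM and at 3.06, 0.795 and 2.22 CPM (-4.99 ± 0.31, adjusted p = 0.00344). In both genes the groups lay far apart and the CD133+Nestin+ library of sort 2 was the lowest.

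Markers of microglia fell less evenly over the sorts. Cx3cr1, the fractalkine receptor, stood at 486, 146 and 206 CPM in CD133+ and at 61.8, 7.82 and 4.26 CPM in CD133+Nestin+ libraries. The 16 genes summed to 4183, 1538 and 2021 CPM in CD133+ libraries and to 554, 128 and 108 CPM in CD133+Nestin+ libraries, which is 7.55-fold, 12.0-fold and 18.6-fold lower in sorts 1, 2 and 3. Both libraries of sort 1 held the most of these transcripts. In bulk libraries, fewer cells of a type and less RNA per cell cannot be told apart.

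Endothelial genes fell in 7 of 7 tested cases, with a median of -4.31 and 7 called without the pairing, and 4 with a pseudocount of 0.1. Cldn5, a tight junction gene of brain capillaries on chromosome 16, stood at 187, 207 and 321 CPM in CD133+ and at 13.7, 1.96 and 9.07 CPM in CD133+Nestin+ libraries (-4.94 ± 0.44, adjusted p = 0.00612). Esam, an endothelial adhesion gene, stood at 120, 148 and 238 CPM and at 8.94, 0.0664 and 9.59 CPM, so that the library of sort 2 was under the level of 3 reads. Eng, a co-receptor of TGF-beta in vessels, had 0.0332 CPM, or 1 read, in the same library. Both genes lost their calls with a pseudocount of 0.1. Ptprb, a phosphatase of endothelial junctions, was the most even, with differences of -4.18, -4.37 and -4.75 over the sorts. The summed endothelial level was 9.82-fold, 28.3-fold and 19.6-fold lower in sorts 1, 2 and 3.

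Mural and fibroblast genes had 5 of 10 tested members lower, with a median of -1.65, and 3 lower without the pairing. None was called higher, and 4 of the 10 had a positive difference, Pdgfra (0.949) and Cspg4 (0.103) among them. Col1a1, the fibrillar collagen of connective tissue, had the largest fall of any eligible gene. It stood at 203, 336 and 480 CPM in CD133+ and at 6.52, 7.69 and 5.74 CPM in CD133+Nestin+ libraries (-5.40 ± 0.30, adjusted p = 0.00344). Dcn, the proteoglycan decorin, had differences of -3.29, -3.61 and -3.52, and Rgs5, a pericyte gene, of -3.54, -4.68 and -2.67. The call of Rgs5 was lost without the pairing. The call of Pdgfrb, the pericyte growth factor receptor (-1.72 ± 0.31, adjusted p = 0.0449), was lost in 8 of 13 alternatives. Cxcl12, the ligand of stromal and vascular cells, stood at 71.1, 123 and 165 CPM and at 4.65, 0.365 and 9.47 CPM.

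**Figure D5:**
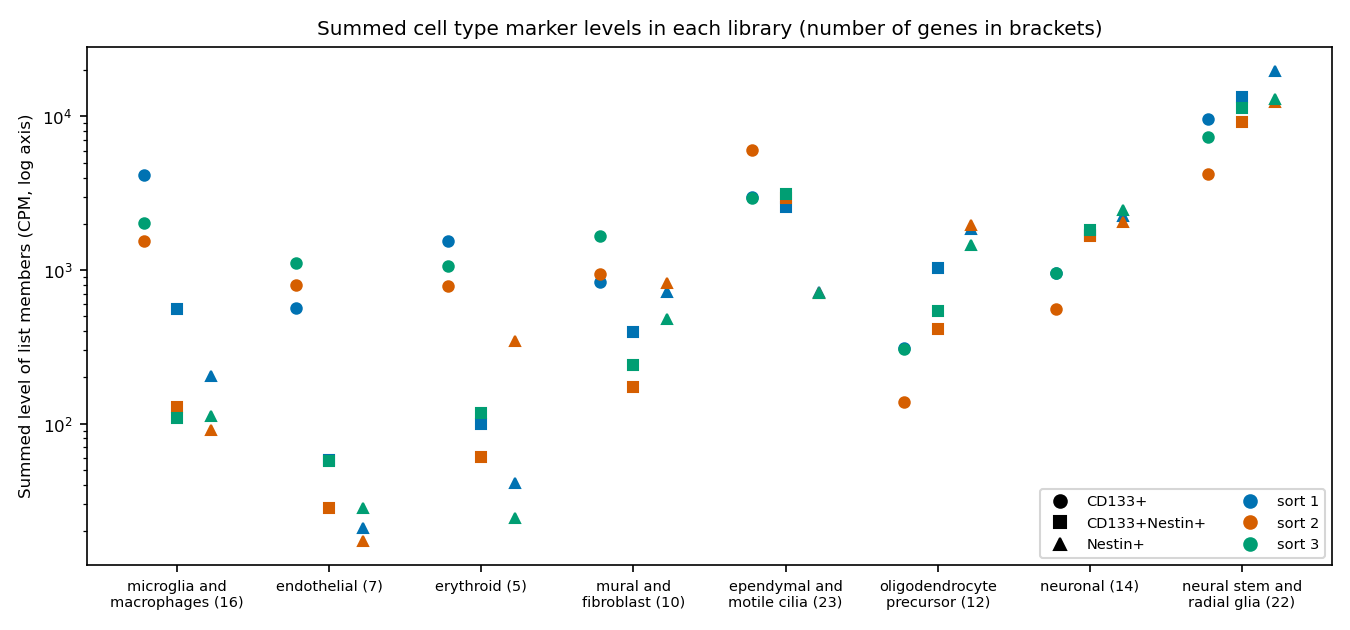
Summed level in CPM (log axis) of the tested members of 8 marker lists in each of the 9 libraries; shapes mark the sorted population and colours the sort. The microglial, endothelial and erythroid sums of all 3 CD133+Nestin+ libraries lie below those of all 3 CD133+ libraries, by 7.55-fold or more within each sort, whereas the ependymal sums meet.

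Red cell genes were lower in all 5 tested cases. Hbb-bs, an adult beta globin gene, stood at 583, 298 and 409 CPM in CD133+ and at 38.3, 21.9 and 42.4 CPM in CD133+Nestin+ libraries (-3.61 ± 0.22, adjusted p = 0.00344). The globin genes are near-identical pairs whose reads could be divided between copies. In the fit of all 9 libraries that left out CD133+Nestin+ replicate 2, 1 of the 5 was called. None of the 12 listed genes of lymphocytes and granulocytes was among the genes tested.

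Basement membrane and matrix genes were lower in part. Of 20 tested, 10 were called lower, 0 were called higher and 5 had a positive difference, with a median of -1.69. Fn1, fibronectin, stood at 127, 181 and 198 CPM in CD133+ and at 18.5, 15.5 and 18.4 CPM in CD133+Nestin+ libraries (-3.18 ± 0.24, adjusted p = 0.00493), and Lamb1, a laminin chain, differed by -3.30 ± 0.25. Col4a1, the basement membrane collagen, fell less, to 41.9, 31.6 and 40.0 CPM from 128, 132 and 178 CPM (-1.92 ± 0.22). Other members lay near 0, among them Lamb2 (0.12 ± 0.20), Lama5 (0.48 ± 0.29) and Agrn (-0.30 ± 0.23), at adjusted p of 0.789, 0.46 and 0.543. The summed endothelial, mural and macrophage levels moved with these genes, as given above, and their part in the matrix values was not tested.

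Interferon response and antigen presentation genes were lower in part. Of 13 tested interferon genes 3 were lower, Bst2, Oasl2 and Isg15, with a median of -1.09. Bst2, an antiviral membrane protein, stood at 23.03, 17.2 and 25.3 CPM in CD133+ and at 4.41, 0.597 and 3.09 CPM in CD133+Nestin+ libraries (-2.78 ± 0.36, adjusted p = 0.0131). Without sort 1, 6 interferon genes were lower, and without sort 2, 7, while 2 were with a pseudocount of 0.1, no filter or quantile normalization, or without sort 3. The call of Isg15 was lost in 5 of the 12 alternatives that tested it, and that of Oasl2 in 1 of 13, without both the pairing and CD133+Nestin+ replicate 2. Of 10 tested antigen presentation genes 2 were lower, with a median of -1.05: B2m, the invariant chain of class I molecules (-2.43 ± 0.27, adjusted p = 0.00927), and H2-D1, a class I heavy chain (-1.80 ± 0.24, adjusted p = 0.0142). Without the pairing 0 were called and without sort 2, 6. Transcripts of microglia and endothelium were lower in the same libraries, and their part in these values was not tested.

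The imprinted genes Igf2 and H19, neighbours on chromosome 7, were lower. Igf2, a fetal growth factor, stood at 165, 158 and 246 CPM in CD133+ and at 17.4, 7.55 and 13.96 CPM in CD133+Nestin+ libraries (-3.81 ± 0.27, adjusted p = 0.00493), and was called in all 13 alternatives. H19, a long noncoding RNA, stood at 24.9, 16.1 and 28.4 CPM and at 5.51, 0.298 and 8.92 CPM (-2.43 ± 0.45, adjusted p = 0.04995), and its call was lost in 6 of 13. The other 12 tested imprinted genes were not called, and the list's median was 0.42. Nnat, for example, was higher by 1.78, 0.812 and 0.732 log2 units in the 3 sorts (adjusted p = 0.111). Whether the macrophage, vascular and connective tissue transcripts that fell with Igf2 and H19 have a part in these values was not tested.

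Genes of replication and division were not called in either direction. Among 19 tested replication genes 8 were higher in all 3 sorts and 0 lower in all 3, with a median of 0.27. Over all genes tested these shares were 18.8% and 24.6%. Of the 19 genes, 12 had a positive and 7 a negative mean difference. Among 20 genes of G2 and mitosis the median was -0.41, and their summed level was 687, 1374 and 889.6 CPM in CD133+ and 857.5, 329.9 and 677 CPM in CD133+Nestin+ libraries. The low value was that of CD133+Nestin+ replicate 2. Of the 20, 5 had a positive and 15 a negative mean difference, and 2 were higher and 3 lower in all 3 sorts. The 3 were Cdk1 (-0.409, -2.97 and -0.996), Top2a (-0.023, -2.62 and -1.36) and Ccnb2 (-0.269, -1.42 and -0.527), and the 2 were Ccna2 and Mki67. Kif20a, a mitotic kinesin, stood at 33.1, 0.317 and 30.7 CPM in the 3 CD133+Nestin+ libraries and at 25.4, 29.4 and 27.7 CPM in CD133+ libraries, and Ccnb1, the mitotic cyclin, at 101, 7.01 and 70.4 CPM against 68.0, 155 and 82.0 CPM. The 20 cholesterol synthesis genes had 0 called members and a median of 0.13.

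Some transcripts differed more between sorts than within them. Nr4a1, an immediate early gene, stood at 7.76, 23.2 and 449 CPM in CD133+ and at 8.97, 40.4 and 468 CPM in CD133+Nestin+ libraries, so that sort 3 was high in both. The 17 immediate early genes summed to 702, 1052 and 5447 CPM and to 493, 1424 and 4049 CPM, and 0 were called, with a median of -0.26. Malat1, a nuclear noncoding RNA, was low in both libraries of sort 1, at 894 and 1083 CPM, and stood at 3217 to 4549 CPM in the other 4. In the list of 10 transcripts read as signs of RNA quality, Malat1 among them, 0 were called, and their median was -0.18. Of the 6 listed sex-linked genes 0 were called, and of 3 tested choroid plexus genes 0. Xist, a transcript of female cells, stood at 18.2 to 57.4 CPM over the 6 libraries compared. The Y-linked genes Kdm5d and Eif2s3y stood at 4.25 to 11.1 CPM and 3.6 to 22.7 CPM, so each library held female and male transcripts.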

How the data were processed

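Total RNA was sequenced (Illumina HiSeq), per the labels' protocols. STAR 2.5.3a, bcl2fastq, Partek 8.0, mm10 and limma appear in the submitters' processing notes, with no role or order. No source used here gives the counting, annotation or strand, so values of overlapping and antisense genes are uncertain. The deposited values were taken as CPM computed by the authors, to which 0.0001 was added, since low values fall on steps of 1 read. Whole reads were not recovered, so no count test was run. A second deposited table gives the authors' p-value, step-up false discovery rate and ratio for CD133+ versus CD133+Nestin+, per the file headers. In that authors' deposited table a rate under 0.05 was reached by 175 genes, 144 higher in CD133+ and 31 in CD133+Nestin+. Of these, 156 (89.1%) were among the 367 paired calls, of which they were 42.5%.

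Genes reaching 1 CPM in any 3 of the 6 libraries were fitted as log2(CPM + 1) in limma 3.58.1 (R 4.3.3) with sort as a block, 2 residual degrees of freedom and trended, robust variances (median prior 4.77). Benjamini-Hochberg adjustment over 15668 genes used 0.05. The sort number in the titles pairs the libraries. Deviations from the group mean correlated at r = 0.211 to 0.598 across genes between libraries of the same number and at -0.448 to 0.097 between others. Deviations within a group cancel out in each gene, so positive values for the same number bring negative ones between others. The contrast is therefore partly arithmetic. Nothing says that libraries came from separate animals, and each p-value therefore reflects only how much these sorts vary, which may be technical. Members, lists and the comparison were chosen with earlier results of these data known. Named genes were Prom1, Nes, the 12 largest rises and falls among called genes with the same direction in all sorts, a higher group mean of 10 CPM or more and no predicted symbol (41 higher and 273 lower genes were eligible), and up to 5 members of smallest p per list. Other genes, such as Pdgfra, Barhl2, Foxj1, Gmnc, Hydin, Cx3cr1, Lamb2, Kif20a and Nr4a1, were chosen after their values were seen. Gene positions were taken from GENCODE M21 (GRCm38, which is mm10). Figures used matplotlib 3.10.9 in Python 3.11.15. The symbols of 24 rows were altered into dates and are not named. Some genes that the rule selects are not reported here.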

Additional observations from a re-analysis of the deposited data

How the results depend on the processing

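The 367 calls (44 higher, 323 lower) became 204 (14 and 190) with no replicate block, 202 of them shared, and the rest lost their calls without the pairing. All 9 libraries with the replicate block gave 788 (185 and 603), a pseudocount of 0.1 gave 230 (22 and 208), and no filter gave 269, with 20 higher and 249 lower. A filter of 5 CPM gave 343, median centring 348, quantile normalization 345 and no trend or robust prior 331, of which 28 were higher. Leaving out 1 sort gave 381 to 1182 calls, 40 to 340 higher and 341 to 842 lower, with 1 residual degree of freedom, so that the spread is largely pooled over genes. After seeing the data 2 fits without CD133+Nestin+ replicate 2 were added. With 9 libraries and the block 806 genes were called (200 and 606), and without the block 234 (20 and 214). The share of higher genes among calls was 12% in the paired fit and 23.5%, 24.8%, 21.1% and 28.8% with 9 libraries, with 9 libraries without that replicate, without sort 1 and without sort 2. It was 6.86% to 10.5% with no block, with or without that replicate, and with no trend or robust prior. With a pseudocount of 0.1, with no filter or without sort 3 it also lay in this range. A filter of 5 CPM, median centring and quantile normalization gave 12.5% to 16.4%. No gene among the 367 changed direction in any of these 13 fits. For most fits this was fixed in advance, since all 367 moved the same way in all 3 sorts. Only median centring, quantile normalization and the 2 fits without CD133+Nestin+ replicate 2 could have changed a direction. Depth limits genes near 0.1 CPM, where a few reads decide the value. Among uncalled genes that the naming rule selects, 7 had a difference that changed sign in 1 or more fits and was not called there. Without CD133+Nestin+ replicate 2 and the block, the log2 difference was 0.077 for Id2, 0.034 for Nsdhl, -0.022 for Miat, -0.123 for Malat1 and -0.372 for Uty. With 9 libraries and the block but without that replicate it was 0.156 for Eif2s3y and -0.155 for Uty. Leaving out 1 sort, Id4 ranged from -0.02 to 0.49 and Uty from -0.301 to 0.745. Of 14 uncalled genes named outside the rule, 5 changed sign without 1 sort. Without sort 1, Pdgfra was at -0.183 and Cspg4 at -0.632, without sort 2, Kif20a was at 0.259 and Ccnb1 at 0.173, and without sort 3, Gmnc was at 0.236.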
